A study of Mus musculus with 2 samples.

Results

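Read counts of 2 chromatin immunoprecipitation (ChIP-seq) libraries were examined at the starts of the mouse olfactory receptor genes, whose symbols begin with Olfr. A member was a window reaching 500 bp to either side of the annotated start of a protein-coding Olfr gene on chromosomes 1 to 19, outside a stretch of chromosome 13 that begins at 21 Mb. The annotation holds 1251 Olfr genes, of which 1113 are protein-coding. The 7 of these on the X chromosome and 13 in the part of chromosome 13 left out were set aside, so 1093 members remained among 21289 protein-coding starts. The pseudogenes (133) and processed transcripts (5) with Olfr symbols were not members.

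Both libraries came from E14 cells at passages 25 to 30, a feeder-independent line of mouse embryonic stem cells from strain 129P2/OlaHsd. The precipitations used 300 µg of chromatin. In the first, chromatin was precipitated with rabbit serum against LUZP1, a leucine zipper protein, and in the second it was a mock precipitation, which the sample labels give as without antibody and the design text as made with GST. The series concerns the coactivators ATAC and Mediator at non-coding RNA genes. There was 1 library per group (n = 1 each), with 4214959 reads for LUZP1 and 2734938 for the mock, so the conditions could not be tested against each other. Every interval below is a 95% interval of read counts and holds counting error alone.

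Olfactory receptors are G protein-coupled receptors that detect odorants, and they form the largest gene family of the mouse. A mature olfactory sensory neuron expresses a single receptor allele and keeps the rest in compact heterochromatin. The genes lie in clusters on many chromosomes, and the protein is usually encoded by a single exon. The working label for these starts was silent chromatin. The files measure neither transcription nor chromatin marks, so silence was not checked here, and only precipitated reads are described.

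Members differed from other protein-coding starts in sequence before any read was counted, and 5 of them are shown together with the start of Lhx2, which encodes a homeodomain factor needed for receptor expression, as a CG-rich contrast. Olfr700 and Olfr982 are the members with the most reads in the mock and in LUZP1, respectively, among those with 0 reads in the other library. Olfr17, the P2 receptor, Olfr1507, the MOR28 receptor, and Olfr1122, the member with the most mock reads, are also given. Sequences are from mm9 (NCBIM37), on the strand of the gene, with CG dinucleotides in capitals. For Olfr700 (chr7:113949925-113950124, minus strand), Olfr982 (chr9:39881732-39881931, plus strand) and Olfr17 (chr7:114240813-114241012, plus strand) they hold 150 bases before the annotated start and 50 from it on, with the start codon at base 151. For Olfr1122 (chr2:87227663-87227812, plus strand), Olfr1507 (chr14:53115371-53115520, minus strand) and Lhx2 (chr2:38194651-38194800, plus strand) they hold only the 150 bases before the start.
Olfr700: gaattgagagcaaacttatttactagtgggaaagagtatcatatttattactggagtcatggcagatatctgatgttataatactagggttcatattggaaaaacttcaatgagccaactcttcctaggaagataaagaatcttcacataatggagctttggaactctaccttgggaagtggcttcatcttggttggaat
Olfr982: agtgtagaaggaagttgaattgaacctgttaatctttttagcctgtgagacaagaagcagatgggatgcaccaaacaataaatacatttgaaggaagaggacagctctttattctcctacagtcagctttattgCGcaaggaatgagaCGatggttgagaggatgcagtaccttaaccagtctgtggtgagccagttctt
Olfr17: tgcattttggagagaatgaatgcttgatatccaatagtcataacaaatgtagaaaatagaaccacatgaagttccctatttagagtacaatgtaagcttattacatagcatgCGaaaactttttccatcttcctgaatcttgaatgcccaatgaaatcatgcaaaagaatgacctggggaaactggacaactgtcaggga
Olfr1122: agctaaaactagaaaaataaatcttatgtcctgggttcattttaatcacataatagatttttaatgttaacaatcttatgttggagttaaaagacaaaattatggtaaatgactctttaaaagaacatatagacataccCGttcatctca
Olfr1507: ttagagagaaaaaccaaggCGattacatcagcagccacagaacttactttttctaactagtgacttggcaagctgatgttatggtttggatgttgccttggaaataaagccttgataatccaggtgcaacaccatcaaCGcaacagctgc
Lhx2: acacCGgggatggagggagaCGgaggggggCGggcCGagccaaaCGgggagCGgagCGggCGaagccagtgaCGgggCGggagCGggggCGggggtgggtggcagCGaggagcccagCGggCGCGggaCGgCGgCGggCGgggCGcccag
Olfr700 has 0 CG dinucleotides in these 200 bases, Olfr982 has 2 and Olfr17 has 1, whereas the 150 bases before Lhx2 have 21. Over whole windows, members held 5.91 ± 4.29 CG dinucleotides (SD over 1093 windows) and the 20196 other protein-coding starts 47.4 ± 34.6. The median ratio of observed to expected CG was 0.135 at members and 0.589 at the other starts. Mean GC content was 39.5% (SD 4.86) at members and 55.2% (SD 9.21) at other starts.

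The annotated start of many members is the start of translation. In 626 members (57.3%) it coincides with the first coding base, against 9.46% of the other protein-coding genes, and 603 of the 626 begin with ATG. For these the window is centred on the coding exon's beginning and need not hold the site where transcription begins. In the 300 bases from 250 before to 50 after the start, on either strand, TAATTA, a homeodomain core, occurred in 19.1% of members and 4.08% of other starts. TATAAA, the core of the TATA box, occurred in 40.8% and 11.9%. The palindrome bound by the Ebf factors, searched in the same bases on either strand, occurred in 6 members (0.549%) and in 0.941% of other starts. That is too few matches to call a difference. The first pair of motifs is rich in A and T, as the members' windows are, and the palindrome is rich in G and C. A match is a description and not a site.

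Reads at members were few. A LUZP1 count ran from 0 to 8 with a median of 1, and a mock count from 0 to 10 with a median of 1. In 455 members both libraries had reads, in 335 only LUZP1 did, in 158 only the mock did, and 145 had none. A window held 1.73 LUZP1 reads (SD 1.68, n = 1093 windows) and 1.18 mock reads (SD 1.43), against 3.07 and 1.69 at other protein-coding starts. The variance over windows was 1.62 times the mean for LUZP1 and 1.74 times for the mock. In either library, 0 reads repeated the start and strand of another.

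**Figure D1:**
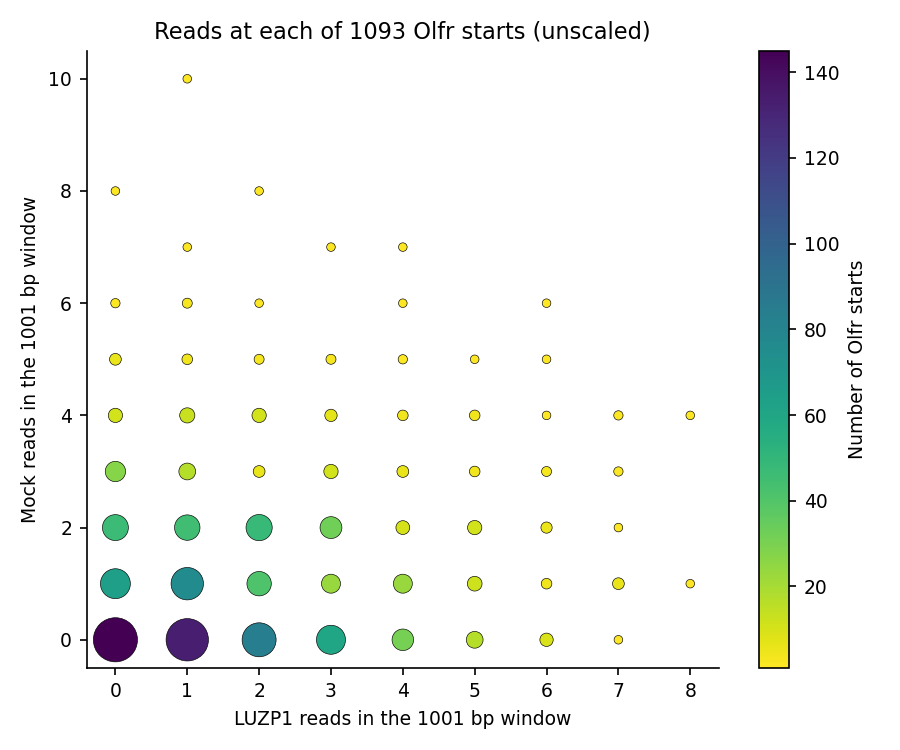
Unscaled LUZP1 reads (horizontal axis) and mock reads (vertical axis) in the window at each of 1093 Olfr starts, with point size and colour giving the number of starts at each pair of counts. Most starts lie near the origin, 145 of them at 0 and 0, and no start has more than 8 LUZP1 or 10 mock reads.

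Pooled over members, LUZP1 reads were not above the mock. With each read counted once, the members held 1894 LUZP1 and 1285 mock reads. Scaled by total reads (mock to LUZP1 0.649), this is a LUZP1 to mock ratio of 0.956 (95% exact Clopper-Pearson interval 0.891 to 1.03). The interval includes 1. It holds counting error alone and takes no account of GC content, so it sets no bound on an excess. Genomic windows of the members' GC content had a ratio of 0.934. Where a plus and a minus read lay a fragment's length apart they may be the ends of 1 fragment, and with such pairs counted once the ratio was 0.973 (0.895 to 1.06). It was 0.887 (0.841 to 0.935), below 1, in windows reaching 1000 bp to either side. None of the authors' 47 listed LUZP1 peaks reached a member: 0 members lay within 500 bp of a peak and 0 within 10 kb, and the nearest, Olfr986, lay 44652 bp away. Of the members, 1064 were on a chromosome with a listed peak. How many of all 21289 protein-coding starts a peak reached was not counted, so the 0 is not read as particular to members.

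The LUZP1 to mock ratio changed with GC content across the genome, and at members it did so too. Across 2390809 windows of the same length tiled over chromosomes 1 to 19, the ratio rose from 0.581 at a GC content of 30 to 32% to 0.929 at 38 to 40% and 1.20 at 52 to 54%. Members were split by GC content into 4 classes of similar size. In the lowest class (26.7 to 36% GC, 273 windows), 342 LUZP1 and 304 mock reads gave a ratio of 0.730 (0.624 to 0.855). In the highest class (42.3 to 55.6% GC, 277 windows), 618 and 329 reads gave 1.22 (1.06 to 1.40). The mock had 1.11 and 1.19 reads per window in these classes and LUZP1 1.25 and 2.23, so the difference lay mostly in LUZP1. Set against tiled windows of the same GC content in steps of 2%, these classes stood at 1.03 (0.880 to 1.21) and 1.08 (0.947 to 1.24), and all members at 1.02 (0.954 to 1.10). Of 11 GC steps with 20 or more members, 10 had an interval that included the ratio of the tiled windows. The exception was the step of 30 to 32%, where 32 LUZP1 and 18 mock reads at 33 members gave 1.15 (0.628 to 2.18). A smaller step, 52 to 54% with 13 members, also lay above the tiled windows, at 2.36 (1.29 to 4.62) from 51 and 14 reads.

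**Figure D2:**
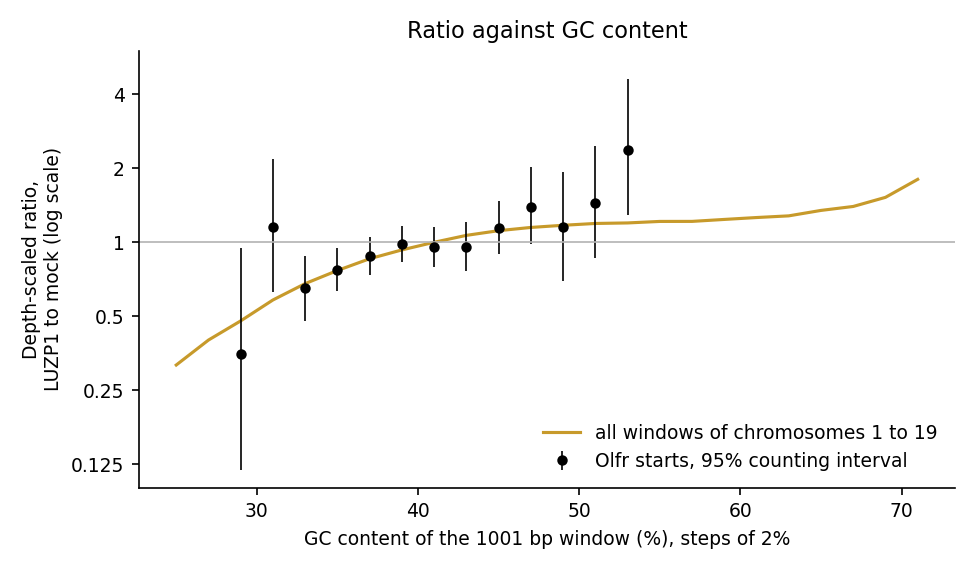
Depth-scaled LUZP1 to mock ratio (log axis) against the GC content of windows in steps of 2%, for tiled windows of chromosomes 1 to 19 (line) and for Olfr starts (points with 95% counting intervals, steps with 10 or more members). Points rise with the line, from 0.773 at 34 to 36% GC to 1.15 at 44 to 46%, and those at 30 to 32% and 52 to 54% have intervals wholly above it.

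LUZP1 reads were denser over the beginning of the coding sequence than before it, and mock reads were not. Aligned on the first coding base, the 500 bp bin centred 500 bp upstream had a mean GC content of 34.9% and the bin centred 500 bp downstream, within the usual coding exon, 45.2%. Between these bins LUZP1 rose from 0.264 to 0.424 RPKM, that is reads per kb scaled to library size (609 and 976 reads). The mock went from 0.385 to 0.353 (576 and 527 reads). The ratio was thus 0.686 (0.611 to 0.770) upstream and 1.20 (1.08 to 1.34) in the exon, and it returned to 0.749 (0.666 to 0.841) at 1000 bp downstream. Genomic windows with equal GC content had ratios of 0.749, 1.11 and 0.825. Divided by these, the observed ratios were 0.916 (0.816 to 1.03), 1.08 (0.973 to 1.21) and 0.908 (0.808 to 1.02), all with intervals that include 1. Of the 41 bins from 10 kb upstream to 10 kb downstream, 31 had such an interval, 10 lay below 1 and 0 above. As a description over these 41 bins, which share the same genes and libraries, the ratio and the GC content had a Pearson r of 0.824 and a Spearman rho of 0.674.

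**Figure D3:**
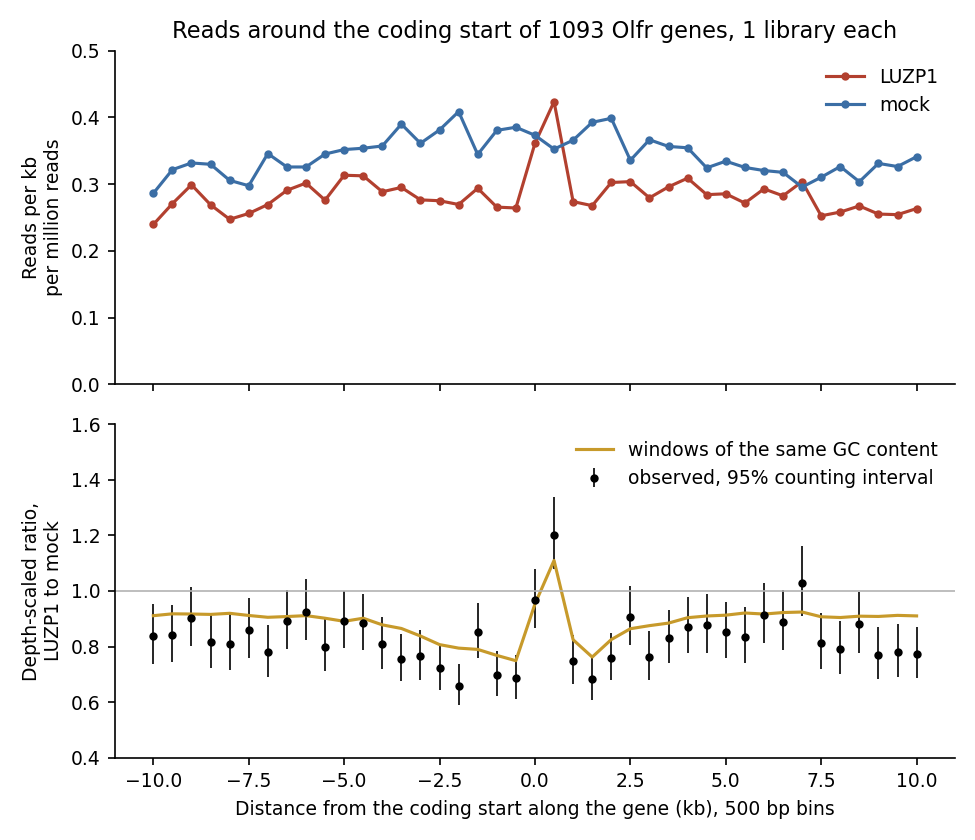
RPKM (top, reads per kb scaled to library size) and depth-scaled LUZP1 to mock ratio (bottom) in 500 bp bins by distance in kb from the coding start of 1093 Olfr genes, with 95% counting intervals; the line gives the ratio of genomic windows of the same GC content. LUZP1 peaks at 0.424 in the bin 0.5 kb downstream, where the mock is at 0.353, and the ratio and the line rise and fall together there.

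Against flanks centred 5 kb upstream and downstream of the same starts, members had the higher ratio. In the 2186 flanks, 3086 LUZP1 and 2344 mock reads gave a ratio of 0.854 (0.809 to 0.902), and the ratio at members was 1.12 times that (Woolf interval 1.02 to 1.22). Upstream flanks stood at 0.862 (0.800 to 0.929) and downstream flanks at 0.845 (0.782 to 0.913). Mean GC content was 38.6% in the flanks and 39.5% at members. With both divided by windows of the same GC content, the difference was 1.08 times (0.992 to 1.18), an interval that includes 1. So divided, the flanks stood at 0.945 (0.895 to 0.998) and the members at 1.02 (0.954 to 1.10). The share of sequence unique in the genome averaged 80.3% in the flanks and 86.0% at members. In the wider windows, without division by GC content, members were 1.05 times their flanks (0.981 to 1.12). For other protein-coding starts the same comparison gave 1.12 (1.10 to 1.14), and 0.980 (0.964 to 0.997) with GC content taken into account.

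Against the other protein-coding starts, members had the lower ratio as counted, and with GC content taken into account the value lay near or above 1. At those starts 58525 LUZP1 and 32251 mock reads gave a ratio of 1.18 (1.16 to 1.19), and the ratio at members was 0.812 times that (0.756 to 0.873). With both divided by genomic windows of equal GC content it was 1.06 times (0.990 to 1.14), which includes 1. With the other starts reweighted to the GC content of the members, their ratio fell to 0.813 and the members stood at 1.18 times it (1.08 to 1.28). A few starts weighed heavily there: 14 with over 20 reads in either library held 26.7% of the reweighted mock reads. Among them were Gm10801 and Gm10800 on chromosome 2, with 200 LUZP1 and 222 mock reads and with 200 and 216, and in 11 of the 14 less than 50% of the sequence was unique in the genome. Without these 14, the reweighted ratio was 0.879 and the members stood at 1.09 times it (1 to 1.18). With members and other starts both limited to windows of at least 80% unique sequence it was 1.08 times (0.984 to 1.19), which includes 1.

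The level of reads at members moved with how unique their sequence was, in both libraries alike. Olfactory receptor genes arose by tandem duplication, and a read from near-identical copies cannot be placed. The share of 36-base sequences that occur exactly once in the genome averaged 86.0% over members (median 92.3%), against 92.0% at other starts (median 100%), and 774 members reached 80%. In the 469 members with 95% or more, LUZP1 reads were 1.16 times and mock reads 1.13 times those of windows of the same GC content. In the 273 members with 50 to 80% they were 0.687 and 0.691 times, and in the 46 below 50% 0.327 and 0.435 times. The LUZP1 to mock ratio over windows of the same GC content was 1.03 (0.931 to 1.14), 0.998 (0.845 to 1.18) and 0.752 (0.430 to 1.32) in these classes, and 1.07 (0.938 to 1.23) in the 305 members with 80 to 95%. All 4 intervals include 1. Olfr1506, Olfr247 and Olfr56 had 0 unique sequences and 0 reads in both libraries. The 129P2/OlaHsd genome was not used here, and alignment to mm9 allowed 1 mismatch, per the design text.

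**Figure D4:**
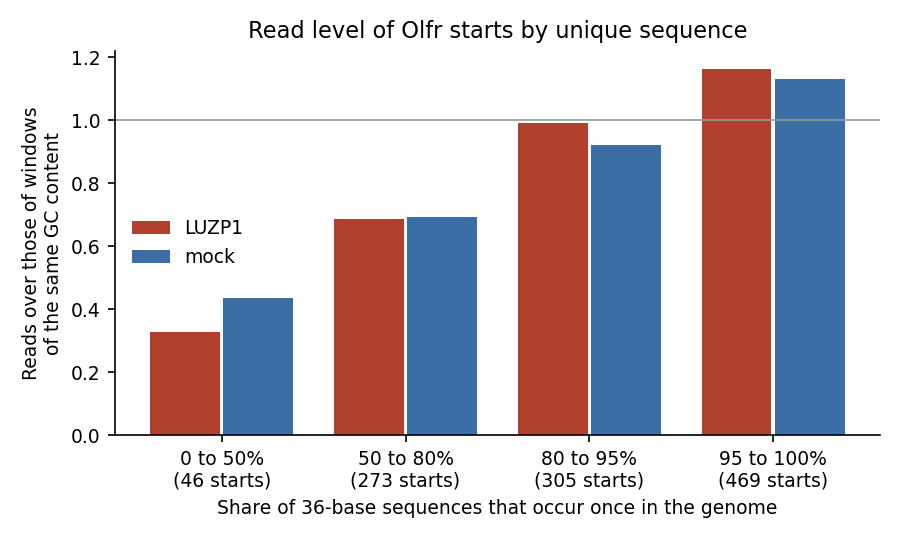
LUZP1 and mock reads at Olfr starts as a multiple of the reads of genomic windows with the same GC content (bars, vertical axis from 0), by share of 36-base sequences that occur once in the genome. Both libraries rise together, from 0.327 and 0.435 below 50% to 1.16 and 1.13 at 95% or more.

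Single members rarely had an interval that excluded 1, and at this depth few counts could place it above 1. The interval of the ratio lay wholly above 1 for 0 of 1093 members, against 1.1% of all protein-coding starts, and wholly below 1 for 26 (2.38%), against 1.67%. Depth makes the directions uneven: 4 mock reads against 0 suffice to place an interval below 1, whereas 8 LUZP1 reads against 0 are needed above it. No member had more than 8 LUZP1 reads, so few could have been called above 1. Other starts reweighted to the members' number of reads had 0.319% above 1 and 0.891% below, and reweighted to their GC content 0.231% and 2.59%. With read pairs counted once, 0 members lay above 1 and 5 below (0.457%), against 0.108% and 0.423% of all protein-coding starts. In the wider windows 6 members (0.549%) lay above 1 and 36 (3.29%) below, against 3.34% and 1.98% of all protein-coding starts. Other starts reweighted to the members' GC content had 0.988% and 3.19% in these windows. With 1 added to both scaled counts, 225 members (20.6%) were at least 2-fold higher in LUZP1 and 218 (19.9%) in the mock. Among all starts the shares were 26.5% and 13.9%, and among other starts reweighted to the members' GC content 17.5% and 18.4%. The median log2 ratio with 1 added was 0.00 at members and 0.20 over all starts. On this scale 0.00 is the value of a window without reads in either library. There were 145 such members, so this median does not describe members with reads.

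Among members with more mock reads, Olfr700 (chromosome 7, start 113949974) had 0 LUZP1 and 8 mock reads, with an upper interval bound of 0.380. Olfr1122 (chromosome 2, 87227813) had 1 and 10, a ratio of 0.0649 (0.00150 to 0.456). Olfr1302 (chromosome 2, 111620470) and Olfr645 (chromosome 7, 111233689) each had 0 and 6, with an upper bound of 0.551. Olfr1121, Olfr1182, Olfr283 and Olfr380 each had 0 and 5, as did Olfr610 and Olfr669, with an upper bound of 0.708. With pairs counted once, Olfr700, Olfr1122, Olfr1182, Olfr380 and Olfr645 kept an interval below 1, with upper bounds of 0.601, 0.757, 0.834, 0.834 and 0.834. Without Olfr700 the pooled ratio over members was 0.962 (0.896 to 1.03).

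At the other end, Olfr982 (chromosome 9, 39881882) had 7 LUZP1 and 0 mock reads. The lower interval bound of its ratio is 0.935. Olfr1090, Olfr1335, Olfr1508, Olfr157, Olfr370, Olfr474 and Olfr518, and tied with them Olfr693 and Olfr822, each had 6 and 0, with a lower bound of 0.764. For none of these was an excess in LUZP1 detectable at this depth. The latter 9 lay on chromosomes 2, 4, 7, 8, 10 and 14, and Olfr1508 lies in the same cluster as Olfr1507.

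Receptors known by common names had 0 to 4 reads in each library. For Olfr16, the MOR23 receptor, which is also known from sperm, 4 LUZP1 and 2 mock reads gave 1.30 (0.186 to 14.3). Olfr78, a receptor also described in the carotid body, had 3 and 2, or 0.973 (0.111 to 11.7). For Olfr17 (P2) the counts were 4 and 0 and the lower interval bound 0.428. Olfr151 (M71) and Olfr2 (I7) each had 1 and 0, and Olfr73 (mOR-EG) had 0 and 1. Olfr1507 (MOR28), which a distal enhancer on chromosome 14 controls in sensory neurons, had 0 and 4, with an upper bound of 0.983, and 0 and 2 with pairs counted once. The symbol Olfr160 (M72) had no match among the members.

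By position, neighbouring starts up to 1 Mb apart were joined into 47 clusters, of which 21 had 10 or more members and held 1009 of them. The cluster ratios ran from 0.625 to 1.82, with a median of 1.01. Intervals lay below 1 in 3 clusters and above 1 in 0, and with pairs counted once below 1 in 1 and above 1 in 0. With GC content taken into account the range was 0.727 to 1.58, and the interval lay above 1 in 1 cluster (4.76% of 21) and below 1 in 0. With pairs counted once and GC content taken into account, 0 lay on either side. Over the 21 clusters, which share the libraries and differ in base composition, mean GC content and ratio had a Pearson r of 0.609 and a Spearman rho of 0.461. After division by windows of the same GC content these were 0.221 and 0.114.

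The largest cluster, on chromosome 2 (85179452 to 90122730), had 221 members, a mean GC content of 35.7% and a ratio of 0.749 (0.635 to 0.884) from 315 LUZP1 and 273 mock reads. Its flanks stood at 0.784 (0.692 to 0.888). On the GC scale, that is over genomic windows of equal GC content, its members were at 0.948 (0.803 to 1.12), and without it the remaining members had a pooled ratio of 1.01 (0.935 to 1.10). The cluster of 129 members on chromosome 7 (109626416 to 112516744), the region known for the class I receptors that mammals share with fish, stood at 1.01 (0.825 to 1.25) from 242 and 155 reads, at a GC content of 41.3%. Its flanks were at 0.789 (0.669 to 0.931), and members were 1.28 times their flanks (0.991 to 1.66). On the GC scale it was at 1.01 (0.823 to 1.24).

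The third cluster by size, with 94 members on chromosome 9 (37538646 to 39994664), was the cluster whose interval lay above 1 on the GC scale, at 1.38 (1.06 to 1.80). Its 174 LUZP1 and 89 mock reads gave a ratio of 1.27 (0.977 to 1.66), against 0.782 (0.644 to 0.9504) from 235 and 195 reads in its flanks. Its members were 1.62 times their flanks (1.18 to 2.23) and 1.36 times all other members (1.04 to 1.77). Smaller clusters on chromosome 7 had higher values with wider intervals: 15 members (93418321 to 93836850) were 2.45 times their flanks (1.13 to 5.33), and 19 members (147348913 to 147890064) were 1.92 times all other members (1.06 to 3.48). On the GC scale these stood at 1.58 (0.829 to 3.15) and 1.58 (0.857 to 3.06), both of which include 1. With pairs counted once, the cluster of 94 members on chromosome 9 was at 1.26 (0.936 to 1.71) on the GC scale, which includes 1. Of its members taken singly, 0 lay wholly above 1 and 1 wholly below, beside 1.1% and 1.67% of all protein-coding starts.

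The clusters whose interval lay below 1 were that of 221 members and those on chromosome 10 (128426905 to 129648205, 58 members), at 0.682 (0.494 to 0.942), and on chromosome 2 (111071994 to 111996055, 37 members), at 0.625 (0.421 to 0.929). On the GC scale the latter pair were at 0.798 (0.578 to 1.10) and 0.727 (0.489 to 1.08). With read pairs counted once, without division by GC content, they were at 0.686 (0.471 to 1.004) and 0.680 (0.423 to 1.10), both of which include 1. The cluster of 221 members was then at 0.781 (0.643 to 0.949). The highest ratio belonged to 19 members on chromosome 7 (147348913 to 147890064), whose GC content of 47.8% was the highest of the 21, at 1.82 (0.987 to 3.53) from 42 and 15 reads. The 84 members in the 26 clusters under 10 members together stood at 1.30 (1.01 to 1.68), and on the GC scale at 1.18 (0.919 to 1.54).

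**Figure D5:**
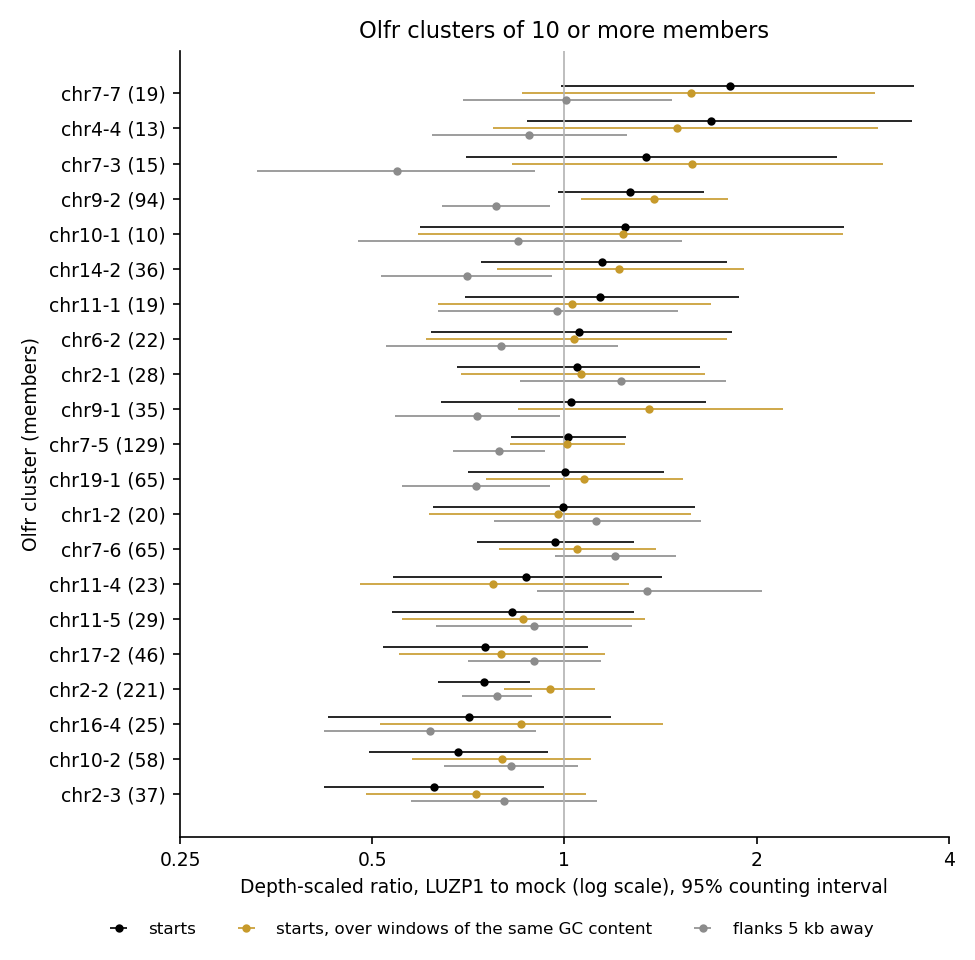
Depth-scaled LUZP1 to mock ratio (log axis) of the 21 Olfr clusters with 10 or more members, named by chromosome and order along it, with 95% counting intervals, for starts, for starts over windows of the same GC content and for flanks 5 kb away. The start ratios run from 0.625 to 1.82, and on the GC scale only the cluster of 94 members on chromosome 9 has an interval wholly above 1.

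Members whose annotated start is the coding start and members with an annotated 5′ untranslated region did not differ detectably. The 626 of the first kind had a ratio of 0.992 (0.903 to 1.09) and the 467 of the second 0.909 (0.814 to 1.02). The first was 1.09 times the second (0.946 to 1.26), or 1.07 times (0.929 to 1.24) on the GC scale.

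Other chemosensory receptors had lower ratios than the olfactory receptors. The 345 starts of vomeronasal (Vmn1r, Vmn2r), trace amine (Taar) and bitter taste (Tas2r) receptors stood at 0.702 (0.601 to 0.821) from 343 LUZP1 and 317 mock reads. Olfactory receptors were 1.36 times that (1.15 to 1.61), and 1.23 times (1.04 to 1.46) on the GC scale. The mean share of unique sequence was 62.1% in that group and 86.0% at members, and its part in the difference was not tested. The 295 vomeronasal starts had 56.7% unique sequence and a ratio of 0.721 (0.604 to 0.862). The 15 trace amine starts had 79.4% and 0.584 (0.291 to 1.16), and the 35 bitter taste starts 99.5% and 0.661 (0.447 to 0.976). On the GC scale these were 0.866 (0.725 to 1.03), 0.549 (0.274 to 1.09) and 0.790 (0.534 to 1.17). The 345 starts together were at 0.831 (0.712 to 0.972), an interval below 1. The interval lay above 1 for 0 of the 345 and below 1 for 8, beside 1.1% and 1.67% of all protein-coding starts. Ribosomal protein starts (130), a contrast of genes active in most cells, had a ratio of 1.04 (0.876 to 1.23) at a mean GC content of 52.4%, and 0.878 (0.741 to 1.04) on the GC scale, where all Olfr members stood at 1.02 (0.954 to 1.10).

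Genes that act with the receptors were read at the same depth. Of 27 symbols for olfactory signalling and receptor choice, 26 matched, and the interval lay above 1 for 0 and below 1 for 0 of them. At the shares over all protein-coding starts, 1.1% and 1.67%, a list of this length would hold few or none. Cngb1, a channel subunit, has 0% unique sequence and 0 reads and could not be called. Their 74 LUZP1 and 41 mock reads together gave 1.17 (0.789 to 1.76), or 0.887 (0.598 to 1.33) on the GC scale. Omp, the marker of mature olfactory sensory neurons, had 6 and 3 reads, or 1.30 (0.277 to 8.02). Adcy3, the adenylyl cyclase of odour signalling, had 2 and 2, and Lhx2 and Ldb1, which encode factors that act at receptor enhancers, had 3 and 0 apiece and a lower bound of 0.268. Atf5, a factor of the stress response that stabilises receptor choice, stood at 7 and 0 with a lower bound of 0.935. Enrichment was not detectable for any of these genes alone at this depth.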

How the data were processed

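The authors deposited mapped reads of 36 bp, 1 line with a read count of 1 each, for 1 LUZP1 and 1 mock library, and a list of LUZP1 peaks as positions without scores. Per the design text, reads were aligned to mm9 with Eland, allowing 1 mismatch, and peaks came from MACS and were limited to 100 to 1000 bp; no tool version is given in the sources used here. The reference was NCBIM37 with the GENCODE annotation of Ensembl 65, later than the Ensembl 57 the authors name. For this report, reads were lengthened to 200 bp in the direction of sequencing, counted per window and scaled by all mapped reads (4214959 and 2734938). In the 500 bp bins around the coding start, each read was counted at a single position instead. Ratios carry exact conditional binomial (Clopper-Pearson) 95% intervals, and ratios of ratios carry Woolf intervals. Both count reads as independent molecules, which they need not be, and so are too narrow where 2 reads come from 1 fragment. Pairs lay 63 to 107 bp (LUZP1) or 47 to 186 bp (mock) apart, which left 3467393 and 1909562 fragments. GC content was compared in steps of 2% with tiled windows of the members' length, and unique sequence was counted for exact 36-base matches on both strands. Counts were made in Python 3.11.15 with scipy 1.17.1, and the steps were tested on simulated reads. Named members are receptors with common names and the 8 with the highest lower and the 8 with the lowest upper interval bound, with ties added. Members, lists and rules were chosen with earlier results of these data known. The alternatives tried are in the closing section.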

Additional observations from a re-analysis of the deposited data

How the results depend on the processing

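The 4 pooled comparisons kept their direction with 5′ ends unextended, windows of 250 bp to either side, pairs counted once, scaling by chromosomes 1 to 19, sums over genes and members of 80% or more unique sequence. Without the largest cluster the pooled ratio was 1.01. Flanks 10 kb away gave 1.22 in place of 1.12, and GC windows near Olfr genes gave 1.04 in place of 1.02. Windows of 1000 bp to either side moved the pooled ratio to 0.887, its interval then below 1, and the GC scale to 0.971. The comparison with other protein-coding starts, 0.812, reversed to 1.18 when those starts were reweighted to the members' GC content. It was 1.09 without starts of over 20 reads, 1.08 also without other chemosensory receptors, and 1.08 with 80% or more unique sequence on both sides; the cause of these shifts was not tested. These last 3 settings, and the divisions by GC content of the flanks and by GC and unique sequence together, were chosen after seeing the data. Members above and below 1 were 0 and 26 (0% and 2.38%, against 1.1% and 1.67% of all protein-coding starts). By a ratio of at least 2 with 1 added they became 225 and 218 (20.6% and 19.9%, against 26.5% and 13.9%). In the windows of 1000 bp to either side they were 6 and 36 (0.549% and 3.29%, against 3.34% and 1.98%). With pairs counted once they were 0 and 5 (0% and 0.457%, against 0.108% and 0.423%). Joining clusters at 0.5 or 2 Mb changed the median cluster ratio from 1.01 to 1.02 and 0.999. No paired analysis was possible because each group had 1 library. At a median of 2 reads per member from both libraries together, only pooled values have narrow intervals.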
